A study of Mus musculus with 4 samples.

Results

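The respiratory chain genes described here are the subunit genes of the 5 complexes that carry out oxidative phosphorylation, taken from both genomes of the cell. Members were chosen by gene symbol alone: the Nduf, Sdh, Uqcr, Cox4 to Cox8 and Atp5 families of the nuclear genome without symbols marked as pseudogenes, and the 13 protein-coding genes of mitochondrial DNA. This gave 96 of the 44788 rows of the count table, 83 nuclear and 13 mitochondrial. The nuclear members comprised 35 genes of complex I, 4 of complex II, 8 of complex III, 19 of complex IV (Ndufa4, named for complex I, was placed there) and 17 of complex V. A few belong to the symbol families without being regular subunits of a complex: Cox7a2l, which helps join complexes into supercomplexes, and Atp5s and Atp5sl.

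RNA-seq was carried out on colon tissue of C57BL/6 mice, with 1 library for each of 4 groups. The mice were wild-type (WT) or labelled Card9-/-, a label for the lack of an adaptor protein of myeloid cells. They were untreated (labelled day 0) or had been treated with AOM/DSS and collected on day 100. In this model of colitis-associated colon cancer the mutagen azoxymethane (AOM, 10 mg/kg, day 1) is followed by dextran sulfate sodium (DSS, 2% in drinking water, 3 cycles of 7 days), which injures the epithelium. Treatment and time of collection coincide, and whether a library came from 1 mouse or from a pool is unknown. Card9 itself went against the genotype label: it had 44 counts in untreated WT, 69 in the untreated library labelled knockout, 116 in AOM/DSS WT and 245 in the AOM/DSS library labelled knockout. The genotype is therefore called a label throughout.

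Complexes I and II feed electrons from NADH and succinate into the chain, complex III passes them to cytochrome c, and complex IV hands them to oxygen. Complexes I, III and IV pump protons across the inner mitochondrial membrane, and complex V, the ATP synthase, uses the returning protons to make ATP. Complex II is also an enzyme of the citric acid cycle and is the complex built from nuclear genes alone. The others are mosaics of proteins made in the cytosol and imported, and of proteins made on mitochondrial ribosomes from RNA that is transcribed from mitochondrial DNA as long precursors and then cut. The absorptive cells of the colon surface, the colonocytes, are rich in mitochondria and oxidise butyrate from the gut bacteria as their main fuel.

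Nuclear chain genes are known for binding sites of NRF1, of ETS family factors (such as GABPA), of YY1 and of oestrogen-related receptors in their promoters. The promoter sequence before the start of 5 members is printed to show how differently these genes begin, with matches to the core NRF1 motif GCGCANGCG or to the ETS motif CCGGAAG (which reads CTTCCGG on the other strand) in capitals. Both strands were searched. Each line gives 200 bases 5′ to 3′ on the strand of the gene, ending at the base before its start, from RefSeq on GRCm38.p6. The 5 genes were picked after their values were seen: Cox6a1, Cox6b1 and Sdha are lower in the AOM/DSS library labelled knockout than in its untreated partner, and Ndufb4 and Ndufb2 are not by the same rule.
Cox6a1, chr5:115348959-115349158, minus strand: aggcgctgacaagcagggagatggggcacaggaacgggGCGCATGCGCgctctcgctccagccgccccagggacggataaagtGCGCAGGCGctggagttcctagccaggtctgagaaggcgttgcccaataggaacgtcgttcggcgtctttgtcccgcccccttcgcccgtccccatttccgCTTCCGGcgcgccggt
Cox6b1, chr7:30626115-30626314, minus strand: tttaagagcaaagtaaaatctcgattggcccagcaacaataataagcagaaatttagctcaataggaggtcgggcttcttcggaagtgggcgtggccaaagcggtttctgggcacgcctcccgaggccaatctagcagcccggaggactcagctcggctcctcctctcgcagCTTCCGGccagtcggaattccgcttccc
Sdha, chr13:74350241-74350440, minus strand: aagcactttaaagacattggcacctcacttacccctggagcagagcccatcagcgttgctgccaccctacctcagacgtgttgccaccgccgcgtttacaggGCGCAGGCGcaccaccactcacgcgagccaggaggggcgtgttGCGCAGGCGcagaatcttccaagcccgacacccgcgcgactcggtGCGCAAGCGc
Ndufb4, chr16:37654369-37654568, minus strand: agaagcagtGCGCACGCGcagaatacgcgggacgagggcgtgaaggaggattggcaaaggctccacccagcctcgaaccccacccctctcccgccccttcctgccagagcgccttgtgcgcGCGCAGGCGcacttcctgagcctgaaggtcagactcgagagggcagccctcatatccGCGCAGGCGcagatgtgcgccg
Ndufb2, chr6:39592365-39592564, plus strand: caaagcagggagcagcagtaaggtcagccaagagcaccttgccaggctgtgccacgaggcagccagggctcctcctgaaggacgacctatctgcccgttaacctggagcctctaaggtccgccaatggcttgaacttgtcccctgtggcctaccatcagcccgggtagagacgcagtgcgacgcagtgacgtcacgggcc
Sdha and Ndufb4 each show 3 NRF1 matches, Cox6a1 shows NRF1 matches (the first on both strands) and an ETS match, and Cox6b1 shows an ETS match alone, while the Ndufb2 stretch shows neither.

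Matches were counted in a longer window, from 250 bases before to 50 bases after the start, which RefSeq gave for 69 of the 83 nuclear members. An NRF1 match stood in 20 of the 69 (29.0%), against 7.03% of all 27025 genes with a window of the same length and 14.0% of the 10897 other genes that had enough counts in the pair of libraries labelled knockout. Of these 20 members, 13 had a match lying wholly within the 200 bases before the start. For the ETS motif the shares were 23.2% of members, 9.93% of all genes and 18.7% of the genes with enough counts. The core YY1 motif AAGATGGCG was present in 8 members (11.6%), against 1.64% and 3.23%, and in 7 of the 8 a match lay after the start. These shares put NRF1 and YY1 matches in a larger part of the chain genes than of other genes with enough counts, and ETS matches in a similar part. The oestrogen-related receptor motif TCAAGGTCA was present in 2 members, Sdhd and Atp5g3 (2.90%), against 0.466% and 0.284%. Between members that were at least 2-fold lower in the pair labelled knockout and the remaining members, the NRF1 share was 12 of 37 (32.4%) and 8 of 32 (25.0%), the ETS share 21.6% and 25.0%, the YY1 share 6 of 37 (16.2%) and 2 of 32 (6.25%), and the oestrogen-related receptor share 0 of 37 and 2 of 32 (6.25%). A match is a string of letters, not a bound site, and no test was made of these shares.

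Counts were scaled to CPM, counts relative to the size of the library, with TMM factors, which adjust for differences in RNA composition, and 4 pairs of libraries were compared. A gene was called higher or lower when the library with more reads held at least 50 counts and the ratio was at least 2-fold on the log2(CPM + 1) scale. Without replicates no difference could be tested, so the same share over all genes with at least 50 counts is given beside each count of members, and the intervals are exact 95% intervals of counting error only. The 4 pairs share libraries. Values for 4 libraries are given in the order untreated WT, untreated labelled knockout, AOM/DSS WT and AOM/DSS labelled knockout.

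The nuclear chain genes together had a summed level of 11935 CPM in untreated WT, 15538 CPM in the untreated library labelled knockout, 13619 CPM in AOM/DSS WT and 7596 CPM in the AOM/DSS library labelled knockout. They held 1.18%, 1.45%, 1.29% and 0.869% of all counts. The 13 mitochondrial mRNAs summed to 28089, 26624, 41203 and 13614 CPM. The AOM/DSS library labelled knockout was thus the lowest of the 4 for both genomes, while the highest was the untreated library labelled knockout for the nuclear genes and AOM/DSS WT for the mitochondrial genes.

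**Figure D1:**
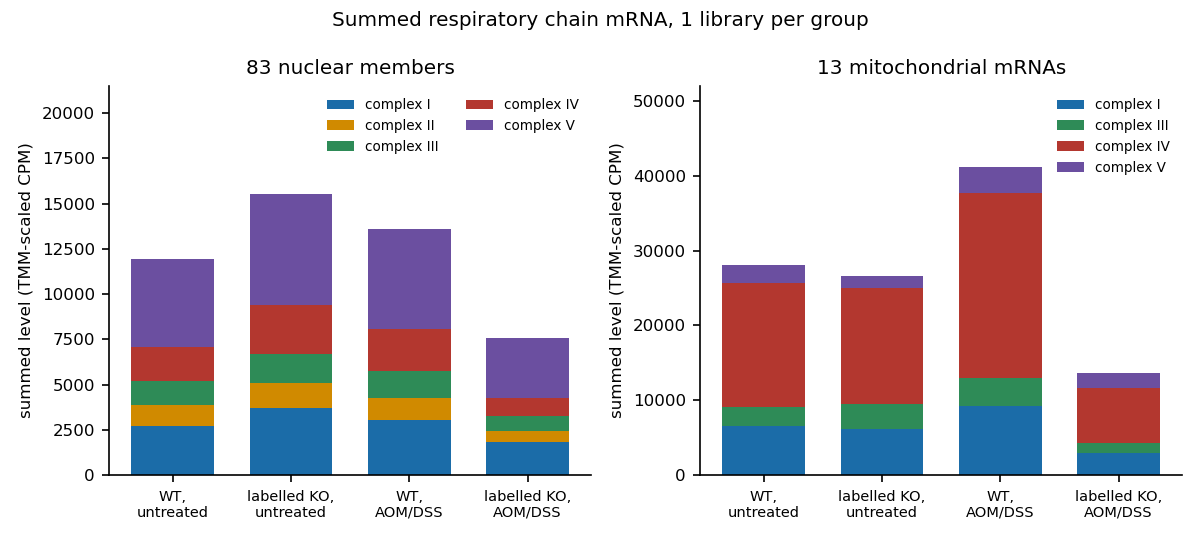
Summed TMM-scaled CPM of the 83 nuclear members (left) and the 13 mitochondrial mRNAs (right) in each of the 4 libraries, stacked by complex; each bar is 1 library and has no error bar. The AOM/DSS library labelled knockout has the lowest bar in both panels, 7596 and 13614 CPM.

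In WT, AOM/DSS left the nuclear chain genes close to their untreated level. None of the 79 nuclear members with enough counts was at least 2-fold higher (4.08% of all genes were) and none was lower (3.88% of all genes). Their median log2 ratio was 0.16, with a range from -0.72 to 0.58, beside 0.02 over all genes. The mitochondrial mRNAs were moderately higher, with a median of 0.56 and 12 of 13 above 0, and the single one past the 2-fold rule was ND6, which was lower.

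Between the libraries labelled knockout the picture was different: 43 of 78 nuclear members (55.1%) were at least 2-fold lower after AOM/DSS, against 15.9% of all genes, and 1 member was higher, against 14.1% of all genes. The median log2 ratio was -1.12, beside 0.03 over all genes, and 75 of the 78 ratios lay below 0. Members of all 5 complexes were among them: 18 of 35 genes of complex I were lower (median -1.13), 3 of 4 of complex II (-1.18), 5 of 8 of complex III (-1.21), 9 of 14 of complex IV (-1.26) and 8 of 17 of complex V (-0.95). Of the mitochondrial mRNAs, 6 of 13 were lower and none higher, with a median of -0.79. With library totals in place of TMM, 26 nuclear and 2 mitochondrial members were lower and the median over all genes moved to 0.30. Under that scaling 64.1% of the genes past the rule were higher, against 47.0% with TMM.

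In the untreated pair the nuclear chain genes were somewhat higher in the library labelled knockout. The median log2 ratio was 0.44, beside -0.01 over all genes, and 63 of 79 ratios lay above 0. By the 2-fold rule 7 members (8.86%) were higher, against 4.46% of all genes, and none was lower, against 3.37%. The 7 were Ndufa1, Ndufa3, Ndufb3 and Ndufc1 of complex I, Uqcrq of complex III, and Cox6b1 and Cox7a1 of complex IV, and all 7 encode small accessory subunits. The mitochondrial mRNAs did not share the shift, with a median of -0.09 and 1 member lower, ATP8.

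In the AOM/DSS pair the direction was the opposite. In the library labelled knockout 18 of 78 nuclear members (23.1%) were at least 2-fold lower than in WT, against 12.4% of all genes, and 1 was higher, against 11.9%. The median log2 ratio was -0.85, beside 0.03 over all genes, and 73 of 78 ratios were below 0, so that most members were lower by less than the 2-fold rule asks. By complex, 6 of 35 genes of complex I were lower, 2 of 4 of complex II, 2 of 8 of complex III, 7 of 14 of complex IV and 1 of 17 of complex V. All 13 mitochondrial mRNAs were lower, 8 of them past the rule, with a median of -1.40. The count of 18 depended on scaling: it was 29 with upper-quartile factors and 9 with library totals, under which the median over all genes was 0.28 and 64.2% of genes past the rule were higher, against 48.9% with TMM.

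**Figure D2:**
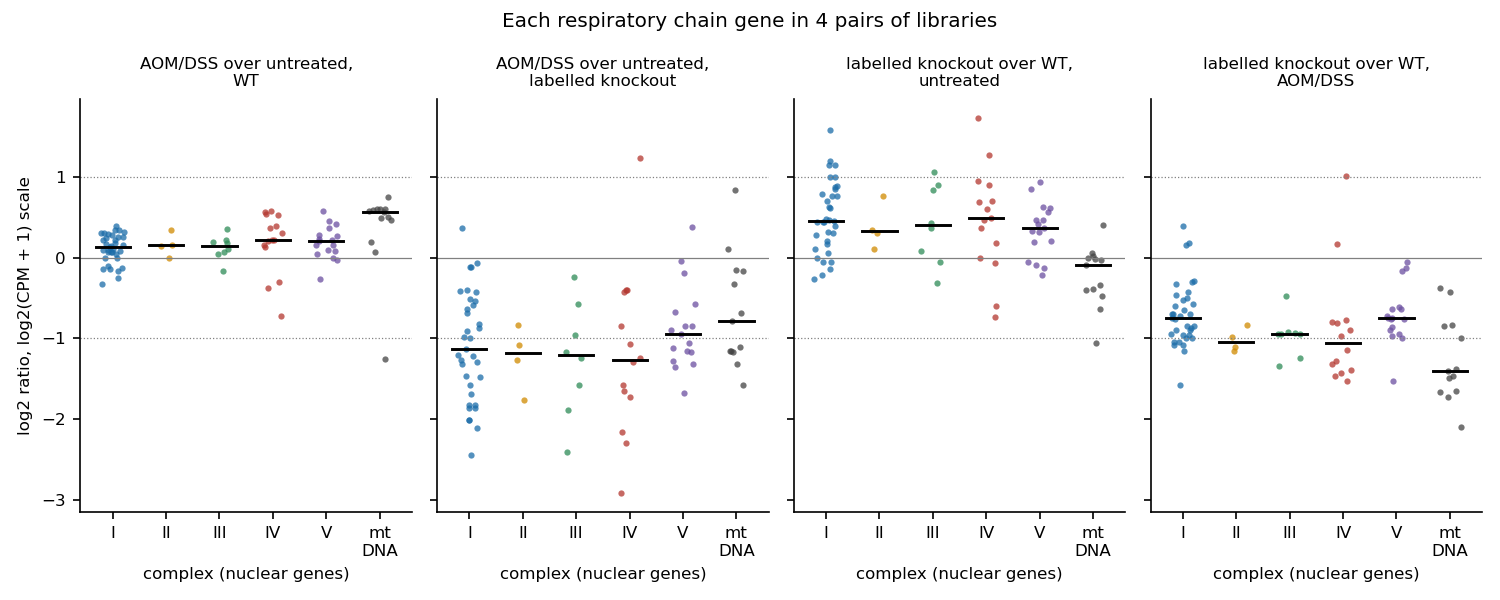
Log2 ratios on the log2(CPM + 1) scale of each member with at least 50 counts, by complex for nuclear genes and together for mitochondrial DNA, in the 4 pairs; points are genes, bars are medians and dotted lines mark the 2-fold rule. In the pair labelled knockout the medians of the nuclear complexes lie between -1.26 and -0.95, and in the WT pair between 0.13 and 0.22.

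Markers of the main cell types of the colon also differed between the libraries. Summed colonocyte markers (10 genes) stood at 12599, 5784, 9959 and 771 CPM, goblet cell markers (8 genes) at 18170, 22577, 14703 and 2144 CPM, and smooth muscle markers (10 genes) at 9210, 9401, 7041 and 1361 CPM. Between the libraries labelled knockout 9 of 10 colonocyte, 7 of 8 goblet and 10 of 10 smooth muscle markers were at least 2-fold lower after AOM/DSS. Of all genes 15.9% were lower in that pair. Leukocyte markers (6 genes) summed to 267, 374, 394 and 993 CPM, and proliferation genes (7 genes) to 657, 426, 394 and 1176 CPM, both highest in the AOM/DSS library labelled knockout. Lyz2 of myeloid cells made up most of the leukocyte sum (193, 266, 239 and 751 CPM), while the B cell gene Cd79a went another way (2.98, 23.8, 26.4 and 4.92 CPM). White fat markers (7 genes) summed to 419, 22.6, 181 and 14.2 CPM. Under the knockout label 7 of 7 were at least 2-fold lower in the untreated pair, against 3.37% of all genes. In the AOM/DSS pair 6 of 6 with enough counts were lower, against 12.4% of all genes. In the AOM/DSS pair the colonocyte, goblet, smooth muscle and nuclear chain sums were all lower under the knockout label. In the untreated pair the goblet and nuclear chain sums were higher under that label. The smooth muscle sums of that pair were close (9210 and 9401 CPM). Of the 10 smooth muscle markers 6 had ratios below 0 and 2 were at least 2-fold higher, with a median log2 ratio of -0.07. The colonocyte sum was lower there, mostly through Car1 (7654 and 857 CPM). By gene, 4 of its 10 markers were at least 2-fold higher and 3 lower, against 4.46% and 3.37% of all genes. In WT the colonocyte, goblet and smooth muscle sums were lower after AOM/DSS and the nuclear chain sum higher. The colonocyte median log2 ratio in WT was 0.34, with 7 of 10 markers above 0. No marker in these lists was at 0 counts in any library, and in bulk tissue fewer cells of a type and less RNA per cell cannot be told apart. The part of tissue composition in the chain gene differences was not tested.

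Complex I is the largest complex and holds the NADH-oxidising arm (the Ndufv and Ndufs subunits) and a membrane arm with many small accessory subunits. Its nuclear genes summed to 2719, 3697, 3028 and 1817 CPM. Ndufa1, a small membrane subunit needed for assembly, lies on chromosome X (37187588 to 37191238, GRCm38). Its level was 26.7 CPM in untreated WT, 60.4 CPM in the untreated library labelled knockout, 24.3 CPM in AOM/DSS WT and 10.3 CPM in the AOM/DSS library labelled knockout. The libraries labelled knockout were thus the highest and the lowest of the 4, 5.87-fold apart (interval 5.19 to 6.65), and the WT libraries lay between them and close to each other.

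In several other accessory subunits the libraries labelled knockout were likewise the highest and the lowest. Ndufa3 stood at 7.74, 25.0, 8.16 and 5.46 CPM, Ndufb3 at 12.8, 30.4, 15.5 and 7.86 CPM, and Ndufc1 at 17.7, 40.3, 18.9 and 9.22 CPM. Ndufs6, a zinc-binding subunit of the peripheral arm, stood at 21.2, 43.3, 18.7 and 9.28 CPM, which is 4.67-fold lower after AOM/DSS between the libraries labelled knockout (4.09 to 5.34). Ndufv3, an accessory subunit next to the site where NADH is oxidised, stood at 90.9, 124, 102 and 33.5 CPM, with the AOM/DSS library labelled knockout 3.06-fold below its WT partner (2.84 to 3.29). On the log2(CPM + 1) scale its ratio (-1.58) was the lowest of any nuclear member in the AOM/DSS pair. As a CPM ratio without the pseudocount, Cox7a1 was lower still (4.59 and 1.14 CPM).

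Other subunits of the same complex hardly moved. Ndufs8, a core subunit with iron-sulfur clusters, had 104, 104, 122 and 99.1 CPM. Ndufb4 had 10.8, 15.2, 9.86 and 11.3 CPM, and its promoter stretch, printed above, holds 3 NRF1 matches. Ndufb2 was the highest of the complex in both pairs that involve the AOM/DSS library labelled knockout, with 93.0, 79.7, 78.0 and 103 CPM, a ratio of 1.29-fold over its untreated partner (1.22 to 1.37). Members of 1 complex therefore ranged from 5.87-fold lower (Ndufa1) to 1.29-fold higher (Ndufb2) in the same pair of libraries.

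Complex II oxidises succinate. Sdha, the flavoprotein, stood at 567 CPM in untreated WT, 609.9 CPM in the untreated library labelled knockout, 569 CPM in AOM/DSS WT and 288 CPM in the AOM/DSS library labelled knockout. Sdhb, the iron-sulfur subunit, stood at 237, 294, 262 and 121 CPM. The membrane anchors were Sdhc at 116, 196, 129 and 57.2 CPM and Sdhd at 221, 279.9, 281 and 157 CPM. All 4 genes were lowest in the AOM/DSS library labelled knockout. Against the untreated partner Sdhc was 3.43-fold lower (3.25 to 3.63), Sdhb 2.43-fold (2.33 to 2.53) and Sdha 2.12-fold (2.06 to 2.17), while Sdhd, 1.78-fold lower (1.72 to 1.85), did not reach the 2-fold rule. The catalytic pair and the anchor Sdhc thus passed and the anchor Sdhd did not.

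Complex III contributed some of the lowest and some of the most even genes. Uqcrb, which lies near the ubiquinone-binding site, is on chromosome 13 (66900576 to 66905350). Its levels were 43.3, 81.6, 38.3 and 14.6 CPM, 5.61-fold lower after AOM/DSS between the libraries labelled knockout (5.06 to 6.23). Uqcrq, a small subunit of the membrane part, had 68.6, 144, 73.4 and 38.4 CPM, and of the untreated pair the library labelled knockout was the higher, 2.10-fold (1.98 to 2.23). Uqcrfs1, the Rieske iron-sulfur protein that passes electrons on, had 172, 222, 178 and 93.1 CPM. Uqcrc2, a large core protein on the matrix side, differed little: 294, 285, 333 and 241 CPM. Uqcr11 went against the order of most members in the untreated pair, with 134, 107, 171 and 71.7 CPM, so that it was lower in the untreated library labelled knockout. Cyc1, the cytochrome c1 of this complex, has a symbol outside the families and stood at 272, 288, 304 and 187 CPM.

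Complex IV gave the widest range of the nuclear genes and holds most of the subunits with tissue-specific versions. Cox4i1, the general version of the largest nuclear subunit, stood at 520.3 CPM in untreated WT, 669.8 CPM in the untreated library labelled knockout, 582 CPM in AOM/DSS WT and 201 CPM in the AOM/DSS library labelled knockout. That library was 3.33-fold below its untreated partner (3.23 to 3.43) and 2.89-fold below AOM/DSS WT (2.81 to 2.98). Cox6a1 (chromosome 5, 115345652 to 115348958), the version of subunit 6a outside heart and skeletal muscle, stood at 259, 502, 285 and 102 CPM, 4.93-fold lower between the libraries labelled knockout (4.74 to 5.13). Cox6b1 (chromosome 7, 30616971 to 30626114), which faces the intermembrane space, stood at 79.6, 193, 116 and 42.5 CPM. Relative to WT, Cox6b1 in libraries labelled knockout was 2.42-fold higher (2.30 to 2.56) without treatment and 2.72-fold lower (2.55 to 2.91) after AOM/DSS.

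Not all complex IV genes followed. Cox5a, an early-assembling matrix subunit, stood at 160.2, 159, 206 and 121 CPM. Ndufa4, now counted as a subunit of complex IV, stood at 54.7, 89.8, 44.2 and 49.8 CPM and was the member of the complex, after Cox6b2, with the highest ratio in the AOM/DSS pair (log2 0.17). Cox7a2l stood at 156, 176, 234 and 133 CPM.

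The pairs of alternative subunits were compared as shares of counts within a library, which do not depend on scaling. Cox6b2 (chromosome 7, 4751792 to 4753094), known as the testis version of subunit 6b, had 92, 45, 56 and 196 counts. It held 4.39% (3.55 to 5.35%) of Cox6b counts in untreated WT, 1.06% (0.777 to 1.42%) in the untreated library labelled knockout, 2.17% (1.64 to 2.81%) in AOM/DSS WT and 12.7% (11.1 to 14.5%) in the AOM/DSS library labelled knockout. It was the only nuclear member called higher in either pair that involves this last library, 2.99-fold over the untreated partner (2.15 to 4.23) and 2.41-fold over AOM/DSS WT (1.78 to 3.30). Both calls rest on low counts and were lost with a pseudocount of 5 CPM or a minimum of 200 counts, and the second also when libraries were thinned to 1 depth or scaled by upper-quartile factors. Of the sperm and testis genes Ldhc, Prm1, Prm2 and Tnp1 together, 0, 1, 0 and 6 counts were found.

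Cox7a1 (chromosome 7, 30184171 to 30186030), the version of subunit 7a known from heart, skeletal muscle and brown fat, moved the other way. Its 97, 327, 100 and 36 counts made 4.68%, 9.31%, 4.78% and 2.40% of Cox7a counts, the remainder being Cox7a2. On the CPM scale it stood at 3.85, 15.1, 4.59 and 1.14, 13.2-fold lower between the libraries labelled knockout (9.37 to 19.2), the largest ratio of any nuclear member in that pair. Skeletal muscle markers (8 genes) summed to 46.6, 35.7, 28.0 and 3.85 CPM, nearly all from Ckm and Acta1. Of the same list Myh4 was at 0 in all 4 libraries, and Myh2 had 8, 31, 6 and 8 counts, under the minimum. Heart muscle markers (4 genes) went another way, with sums of 4.01, 4.65, 10.5 and 11.7 CPM, nearly all from Myl7 and Tnnt2. Brown fat markers (4 genes) summed to 48.8, 42.7, 36.3 and 40.5 CPM, nearly all from Ppargc1a. Of these, Ucp1 had at most 1 count in any library. The part of muscle or brown fat cells in the Cox7a1 difference was not tested.

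Other alternative versions were rare. Cox4i2, a version known from lung, held 0.584%, 0.213%, 0.252% and 0.499% of Cox4i counts. The muscle version Cox6a2 had 3, 3, 0 and 4 counts and Cox8b had 13, 8, 5 and 1, while Cox7b2 and Cox8c were at 0 in all libraries, which allows shares of up to 0.191% of Cox7b counts and up to 0.0592% of Cox8 counts. Ndufa4l2, a relative of Ndufa4 induced by low oxygen, had 30, 37, 26 and 16 counts, under the minimum. In the ATP synthase, Atp5g1, Atp5g2 and Atp5g3 encode the same mature ring subunit, and Atp5g3 supplied 88.9%, 88.5%, 89.2% and 89.2% of their counts. The ring genes thus kept their proportions within 1 percentage point for Atp5g3 while their levels differed.

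Complex V differed least among the complexes in the pair labelled knockout. Its nuclear genes summed to 4882, 6152, 5566 and 3315 CPM. Atp5k, a small membrane subunit, stood at 54.5, 99.3, 60.4 and 30.4 CPM, 3.26-fold lower between the libraries labelled knockout (3.02 to 3.52), and Atp5h, a subunit of the peripheral stalk, at 60.2, 81.2, 58.9 and 31.3 CPM. Atp5l, a subunit of the membrane part that joins synthase dimers, stood at 25.7, 24.7, 38.6 and 12.7 CPM and was the single member of the complex called lower in the AOM/DSS pair, 3.03-fold (2.69 to 3.42). Pseudogene rows of Atp5l (13, 139, 38 and 39 counts and 17, 3, 7 and 71 counts) can share its reads, beside 648, 536, 841 and 403 counts for Atp5l itself, so its values are uncertain.

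Atp5c1 was the exception of the complex. It encodes the central stalk subunit that turns inside the catalytic head, and it stood at 269.7, 246, 358 and 319 CPM, 1.30-fold higher after AOM/DSS between the libraries labelled knockout (1.26 to 1.34). The catalytic subunit that surrounds it, Atp5b, named here after its values were seen, stood at 1433, 1984, 1522 and 896 CPM, 2.21-fold lower in the same pair (2.18 to 2.25). The row marked as a pseudogene of Atp5c1 had 175, 135, 252 and 343 counts, against 6798, 5342, 7811 and 10117 for Atp5c1. Subunits that pair in the assembled motor thus differed in direction at the RNA level in 1 pair of libraries.

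The mitochondrial mRNAs are far more abundant per length than the nuclear ones. The median level was 2042, 1390, 2889 and 912 CPM per kilobase over the 13 mitochondrial mRNAs, and 102, 143, 114 and 65.4 over the nuclear members with a length. COX1, the catalytic subunit of complex IV (mitochondrial genome, 5328 to 6872), was the most abundant, with 11320 CPM in untreated WT, 11771 CPM in the untreated library labelled knockout, 16993 CPM in AOM/DSS WT and 3961 CPM in the AOM/DSS library labelled knockout. It took 40.3%, 44.2%, 41.2% and 29.1% of mitochondrial mRNA counts. In the AOM/DSS pair COX1 was 4.29-fold lower in the library labelled knockout (4.26 to 4.32), the largest difference of any member with enough counts in that pair.

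The ratios of the mitochondrial mRNAs differed along the genome. Between the libraries labelled knockout the genes before and including COX1 were lower after AOM/DSS (log2 -1.16 for ND1, -1.10 for ND2 and -1.57 for COX1), and so were ND4 (-1.15) and CYTB (-1.31), the single mitochondrial subunit of complex III. None of the 5 genes that follow COX1 passed the rule: COX2 had -0.15, ATP8 0.83, ATP6 0.10, COX3 -0.17 and ND3 -0.33. ND4L (-0.68) and ND5 (-0.79) lay between, and ND6 had -1.17. In the untreated pair 4 genes of this same block, COX2 (-0.34), ATP8 (-1.06), ATP6 (-0.39) and COX3 (-0.63), were lower in the library labelled knockout, while ND1, ND2, COX1, ND3, ND4L and ND4 lay between -0.09 and 0.06. Outside the block ND5 (-0.40) and ND6 (-0.47) were also lower there, and CYTB (0.40) was higher. Because the untreated library labelled knockout enters both pairs, these are not independent observations. In AOM/DSS WT against untreated WT the ratios of 10 of the 13 genes lay between 0.46 and 0.75, and ND2 (0.19), ND3 (0.07) and ND6 (-1.26) were outside.

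ATP8, a small subunit of the membrane part of the synthase, stood at 592, 283, 896 and 505 CPM, and ATP6, which forms the proton path with the ring, at 1813, 1384, 2676 and 1480 CPM. Their reading frames overlap (7766 to 7969 for ATP8 and 7927 to 8607 for ATP6), and reads of the overlap can be counted for either. In the untreated pair ATP8 was the one mitochondrial mRNA past the rule, 2.09-fold lower under the knockout label (2.03 to 2.15). Complex V thus had the least lowered mitochondrial subunits in the pair labelled knockout, where both ratios were above 0, and its nuclear genes had the median nearest 0 of the 5 complexes in that pair.

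ND6 is the only mRNA encoded on the other strand of mitochondrial DNA and lies at 13552 to 14070, beside ND5. It was rare, with 533, 326, 180 and 193 counts, or 0.0753%, 0.0564%, 0.0200% and 0.0447% of mitochondrial mRNA counts. In WT it was 2.56-fold lower after AOM/DSS (2.16 to 3.05), while each of the other 12 was higher, and with a pseudocount of 5 CPM it missed the rule. How the counting handled strand is not given in the sources used here, so reads of ND6 and of RNA from the opposite strand cannot be told apart. The mitochondrial ribosomal RNAs also took another course than the mRNAs in WT: Rnr1 stood at 2427, 1981, 1382 and 647 CPM, and Rnr2 at 6245, 4733, 3608 and 1711 CPM. Both were lower after AOM/DSS in WT as well as between the libraries labelled knockout. How ribosomal RNA was handled in library preparation was not examined.

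**Figure D3:**
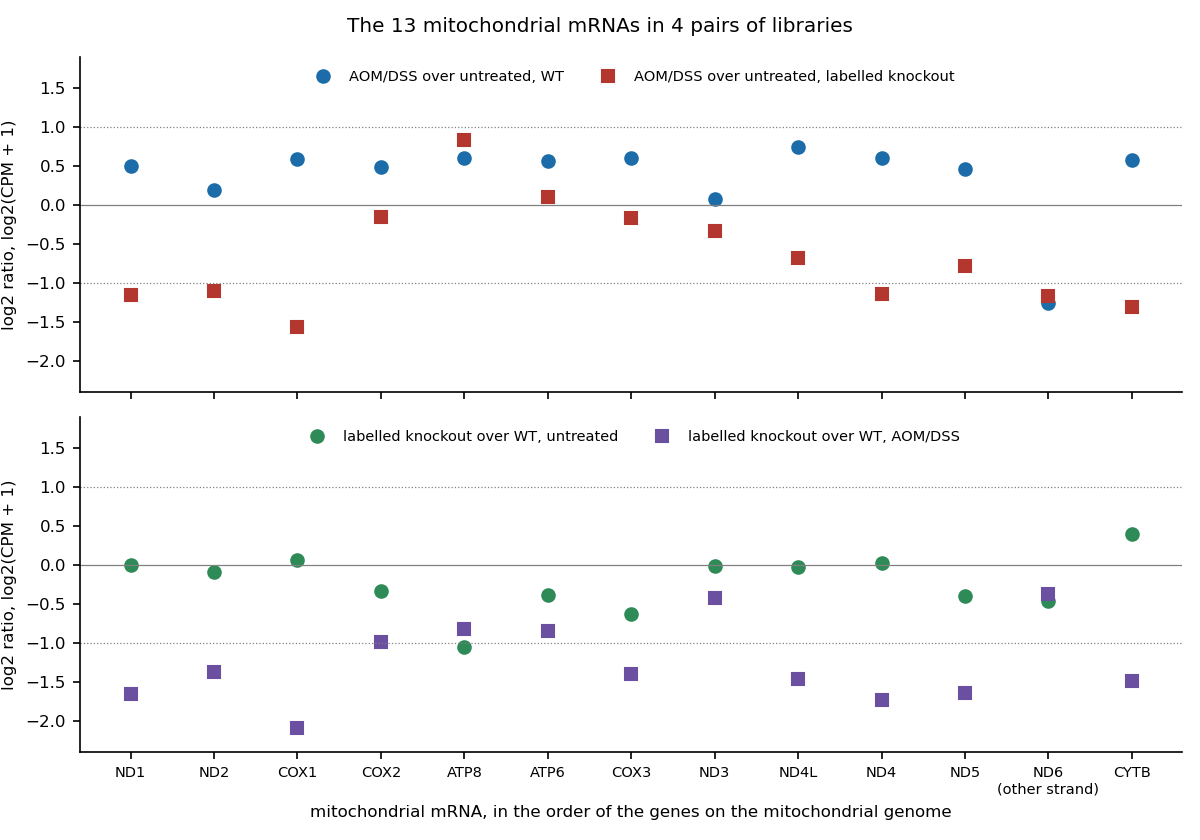
Log2 ratios on the log2(CPM + 1) scale of the 13 mitochondrial mRNAs, in the order of their genes, for AOM/DSS over untreated (top) and labelled knockout over WT (bottom); each point is 1 gene in 1 pair and dotted lines mark the 2-fold rule. In the top panel the squares of COX2, ATP8, ATP6, COX3 and ND3 sit between -0.33 and 0.83, above ND1, ND2, COX1, ND4 and CYTB at -1.10 or below.

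The balance of the genomes was measured as nuclear chain counts per mitochondrial mRNA count within a library. It was 0.425 (0.4231 to 0.4267) in untreated WT, 0.584 (0.5811 to 0.5861) in the untreated library labelled knockout, 0.331 (0.3292 to 0.3319) in AOM/DSS WT and 0.558 (0.5551 to 0.5607) in the AOM/DSS library labelled knockout. Both libraries labelled knockout were higher than both WT libraries. The log2 change with AOM/DSS was -0.36 in WT and -0.06 between the libraries labelled knockout. The second value rests on COX1: without it the change was -0.41, and as a difference of gene medians it was -0.33. The smaller summed levels in the AOM/DSS library labelled knockout thus involved both genomes.

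Within-library ratios to other gene sets are likewise free of scaling. Nuclear chain counts per cytosolic ribosomal protein count were 1.21, 1.13, 1.03 and 0.558, and per count of 13 mitochondrial outer membrane and import genes they were 9.16, 12.7, 10.3 and 5.91. The AOM/DSS library labelled knockout was the lowest by both measures. It was also the lowest per count of assembly factors (11.3, 13.9, 13.1 and 9.13), of mitochondrial ribosomal proteins (5.86, 6.44, 6.42 and 3.98) and of genes for mitochondrial DNA maintenance and transcription (25.9, 36.9, 31.1 and 17.4). Per count of citric acid cycle and pyruvate entry genes it was close to untreated WT (2.91, 3.37, 3.57 and 2.84), and per count of mobile carriers and electron entry it was above both WT libraries (7.81, 12.2, 7.57 and 8.31).

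Other mitochondrial gene lists are given by role, in counts and medians that were not tested, beside the 15.9% of all genes that were lower between the libraries labelled knockout. In that pair 8 of 20 genes of the citric acid cycle and pyruvate entry were at least 2-fold lower (median -0.65), among them Suclg1, a subunit of succinyl-CoA ligase (213, 285, 191 and 94.6 CPM), and Idh3b, a subunit of isocitrate dehydrogenase (166, 212, 168 and 72.9 CPM). Cs, citrate synthase, often used as a measure of mitochondrial content, had 509, 737, 502 and 454 CPM. Of assembly factors, which help to build the complexes, 8 of 43 were lower and 1 was higher (median -0.42). Surf1, needed for complex IV, had 53.6, 58.8, 50.9 and 21.8 CPM, Coa3, another complex IV factor, had 65.0, 96.2, 58.9 and 29.4 CPM, and Cox18, which inserts COX2 into the membrane, was the one called higher, with 8.53, 5.29, 5.46 and 12.1 CPM.

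The mitochondrial ribosome had 12 of 76 proteins lower and none higher (median -0.26), including Mrps21 (18.2, 43.3, 23.8 and 9.79 CPM). Of mobile carriers and genes of electron entry, 1 of 15 was lower, Etfb (179, 169, 174 and 67.5 CPM), with a median of -0.37. Cycs, the cytochrome c that links complexes III and IV, stood at 23.9, 16.0, 31.9 and 24.5 CPM and thus did not follow them. Maintenance and transcription of mitochondrial DNA had 1 of 19 lower and 1 higher (median 0.18). Tfam, which packages mitochondrial DNA and starts its transcription, had 32.6, 31.7, 30.0 and 23.6 CPM. Of outer membrane and import genes none of 13 passed the rule in any of the 4 pairs, and their median between the libraries labelled knockout was 0.05. Of 5 chain genes that the symbol families miss and that had enough counts, 3 were lower in that pair (Ndufab1, Usmg5 and Atpif1, median -1.05).

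**Figure D4:**
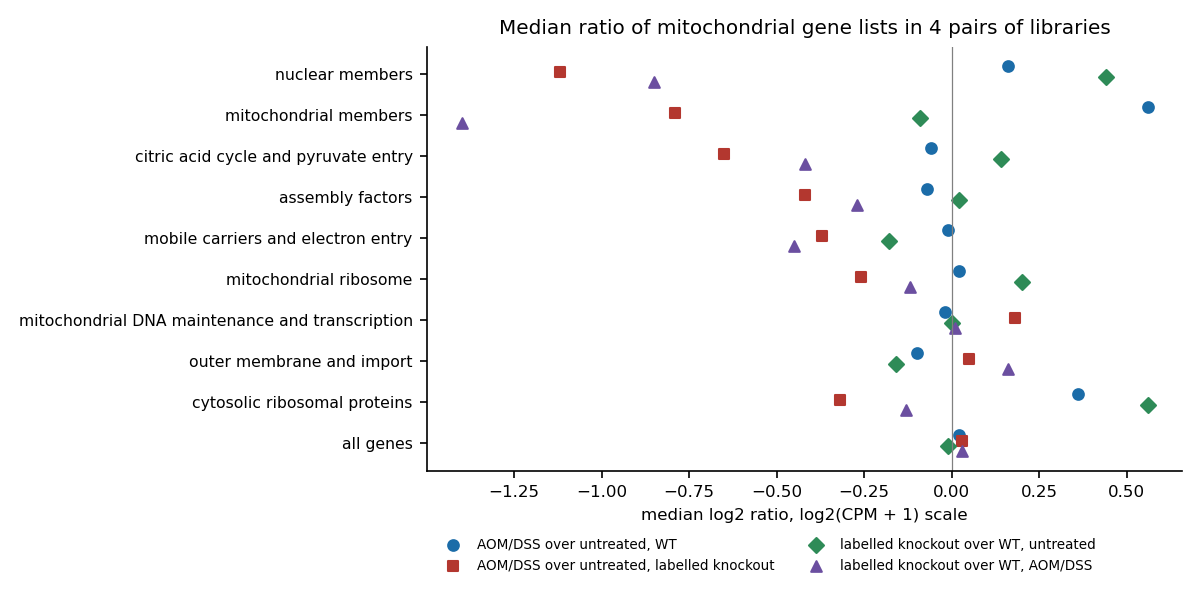
Median log2 ratio on the log2(CPM + 1) scale of each gene list in the 4 pairs, over members with at least 50 counts; each point is the median of 1 list in 1 pair, without an error bar. The nuclear members stand at -1.12 in the pair labelled knockout, against -0.65 for the citric acid cycle, -0.26 for the mitochondrial ribosome and 0.05 for outer membrane and import.

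Regulators known to act on these genes differed in direction. Ppargc1b, a coactivator of mitochondrial genes, stood at 114 CPM in untreated WT, 128 CPM in the untreated library labelled knockout, 87.8 CPM in AOM/DSS WT and 18.3 CPM in the AOM/DSS library labelled knockout, 6.99-fold below its untreated partner (6.39 to 7.66). Esrra, the oestrogen-related receptor that it coactivates, stood at 100.1, 132, 139 and 47.8 CPM, 2.77-fold lower in the same pair (2.60 to 2.94). Esrrg, a second receptor of this kind, had 2.30, 12.8, 0.183 and 0.284 CPM, and Ppara, a receptor that drives fatty acid oxidation, had 73.4, 37.6, 86.8 and 4.20 CPM. Ppargc1b, Esrra and Ppara were lowest in the library where the chain genes were lowest, and Esrrg was low in both AOM/DSS libraries.

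Ppard, a relative of Ppara named here after its values were seen, had 232, 296, 177 and 77.9 CPM and was also lowest there.

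Several regulators did not have this order. Ppargc1a, the relative of Ppargc1b, stood at 48.1, 42.5, 36.3 and 40.1 CPM, Nrf1 at 21.9, 31.4, 24.1 and 32.5 CPM, and Gabpa at 43.1, 42.4, 31.0 and 46.6 CPM. Hif1a, the oxygen-sensitive factor that shifts cells to glycolysis, was higher in the AOM/DSS libraries under both labels, with 30.9, 89.9, 95.5 and 265 CPM. Myc stood at 23.0, 27.6, 28.4 and 62.4 CPM. Of 13 regulators, 5 were lower and 2 higher between the libraries labelled knockout, with a median of 0.05. Of all genes 15.9% were lower and 14.1% higher in that pair. Whether any of them bears on the chain genes was not tested.

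Transcript length moved with the ratios and is given beside them, because nuclear chain mRNAs are short: the median transcript length was 724.25 bases over the 82 nuclear members with a length, against 2714 over all genes with enough counts in any pair. Among genes under 700 bases, the median log2 ratio in the pair labelled knockout was -1.28 for the 35 members with enough counts, -0.51 for the 317 other genes and -0.47 for 33 cytosolic ribosomal protein genes. The members called lower were 68.6% of the 35, against 34.7% of the other genes. From 1500 to 2500 bases the members had a median of -0.59 and other genes 0.04. The members' median was below that of other genes in all 5 length classes in this pair and in the AOM/DSS pair, where under 700 bases it was -0.94 against -0.22. Of the 18 members called lower in the AOM/DSS pair, 13 were under 700 bases. They made up 37.1% of the 35 members of that length, against 19.0% of other genes. From 1000 to 1500 bases the share lower was 27.3% (3 of 11 members), against 14.6%. In the remaining classes the share of members was smaller than that of other genes, on few members each. It was 6.25% (1 of 16) against 13.8% from 700 to 1000 bases, and 9.09% (1 of 11) against 13.9% from 1500 to 2500. From 2500 bases it was 0 of 4 against 11.4%.

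In the untreated pair, length and membership were closer together. Under 700 bases the members had a median of 0.70, other genes 0.46 and ribosomal protein genes 0.58, and the members called higher were 14.3%, against 18.1% of other genes of that length. The share of the higher level of nuclear chain genes in the untreated library labelled knockout that goes with short length was not tested. In that pair 12 of 78 ribosomal protein genes (15.4%) were also called higher, against 4.46% of all genes, with a median of 0.56. Among them were Rps26 (39.2, 120.2, 39.2 and 37.7 CPM) and Rpl41 (102, 279.9, 134 and 116 CPM).

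**Figure D5:**
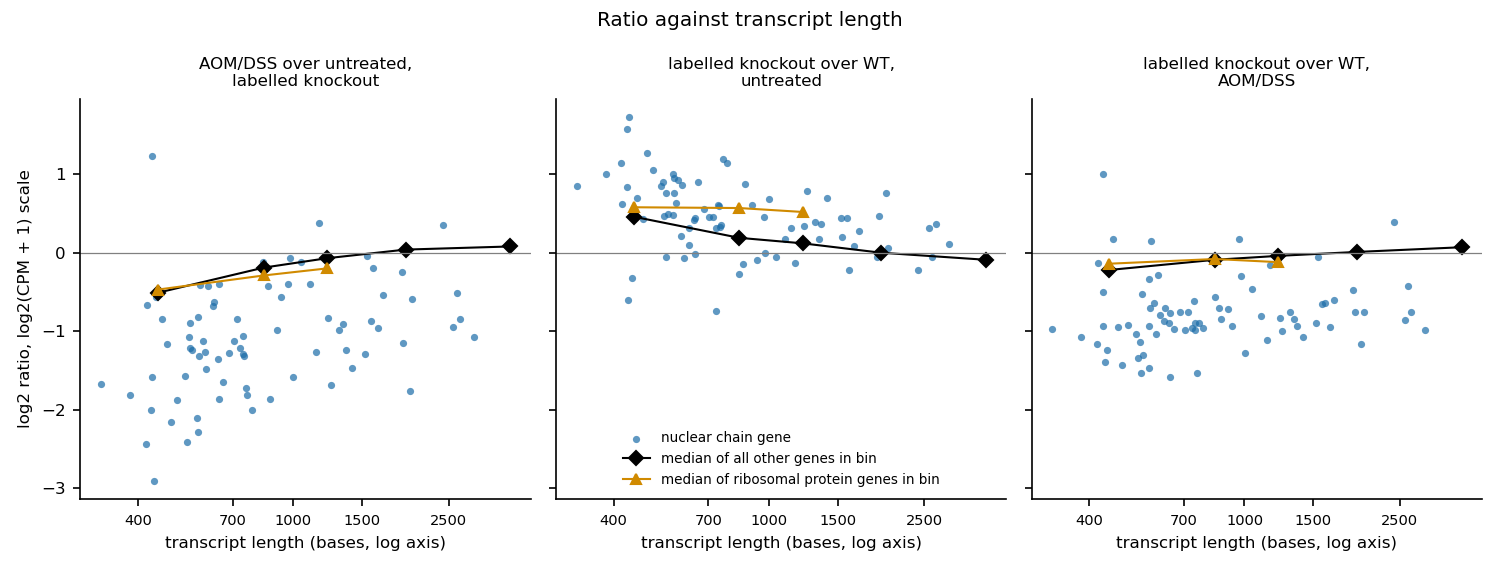
Log2 ratio on the log2(CPM + 1) scale against median transcript length (log axis, bases) for nuclear members (points), with the median of all other genes (diamonds) and of ribosomal protein genes (triangles) in each length class, in 3 pairs. In the pair labelled knockout other genes under 700 bases have a median of -0.51 and the members -1.28, and in the untreated pair the values are 0.46 and 0.70.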

How the data were processed

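The authors deposited raw counts of reads per gene symbol, not normalized, in 1 column per library, with 0 columns of other samples. Reads came from an Ion Proton RNA-seq kit after TRIzol extraction, per the labels' protocols, and reads were placed on GRCm38 (mm10), per the submitters' processing notes. For aligner, counter, annotation and strand handling nothing is stated (not given in the sources used here), so reads of overlapping genes and near-identical copies can be split or lost. Library totals were 25422042, 23332004, 23022885 and 27706567 counts, with TMM factors of 0.9915, 0.9311, 0.9473 and 1.1434 (edgeR 4.0.16, R 4.3.3). In 27 rows the symbol had become a date.

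Log2 ratios use a pseudocount of 1 CPM, which understates differences of low genes. Folds are CPM ratios without it, with Clopper-Pearson intervals conditional on the summed counts. Reads carried no molecular identifiers that the labels mention and may repeat molecules, so intervals and limits (3 counts for a count of 0) cover counting error only. With 1 library per group no p-value was computed. Named genes were all mitochondrial mRNAs, the alternative subunits, the Sdh genes, the 2 highest and 2 lowest ratios per complex and pair, a fixed set of regulators and carriers, and the 2 highest and 2 lowest genes past the rule per list. Atp5b, Ppard, Ndufc1, Atpif1, the printed promoters and the motif letters were chosen after values were seen. So were Sdhd and Atp5g3 for a motif and Rnr1 and Rnr2. Marker genes come from fixed lists. Lengths are median GENCODE M21 coding-gene transcripts. The members and lists were chosen with earlier results of these data known.

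Alternatives were DESeq2 (1.42.0) size factors, upper-quartile factors, library totals, pseudocounts of 0.5 and 5 CPM, a minimum of 200 counts or none, thinning to the smallest total, and scaling without genes above 1% of a library or without mitochondrial mRNAs.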

Additional observations from a re-analysis of the deposited data

Results flagged for a closer look

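For 3 nuclear members, the ratio of labelled knockout to WT passed the 2-fold rule in opposite directions in the untreated and the AOM/DSS pair. Cox7a1 had a log2 ratio of 1.73 in the untreated pair and -1.39 in the AOM/DSS pair, a difference of -3.11. Cox6b1 had 1.27 and -1.43, a difference of -2.69. Ndufa1 had 1.15 and -1.16, a difference of -2.31. With 1 library per group the differences were not tested, and Cox7a1 had 36 counts in its lowest library. All 3 have transcripts under 700 bases.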

How the results depend on the processing

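No paired analysis was possible because each group has 1 library, and leaving out a library was not possible for the same reason. The median log2 ratio of the nuclear members kept its sign under all scalings, at 0.1 to 0.16 (AOM/DSS in WT), -1.17 to -0.84 (AOM/DSS, labelled knockout), 0.35 to 0.45 (label, untreated) and -0.91 to -0.58 (label, AOM/DSS), and so did that of the mitochondrial mRNAs, at 0.5 to 0.56, -0.84 to -0.5, -0.22 to -0.09 and -1.46 to -1.13. The median of each nuclear complex kept its sign as well. Single genes with ratios near 0 did not always do so. With library totals COX2 and COX3 were higher after AOM/DSS in the pair labelled knockout, against -0.15 and -0.17 as reported. Under that scaling the pair labelled knockout had 26 nuclear members lower (43 as reported), 2 mitochondrial lower (6) and 1 higher (0). In the AOM/DSS pair it gave 9 nuclear lower (18), and upper-quartile factors gave 29. The cause was not tested. In the untreated pair library totals put 48.1% of genes past the rule on the higher side, against 57.0%. The single nuclear member called higher was lost (0) with a pseudocount of 5 CPM or 200 counts in both pairs, and in the AOM/DSS pair also with upper-quartile factors or thinning, and ND6 was lost in WT (0 lower) with 5 CPM. In the order of libraries used above, nuclear counts per mitochondrial count were 0.384, 0.532, 0.300 and 0.512 without complex II and 0.712, 1.05, 0.563 and 0.787 without COX1. The log2 change of this ratio was -0.34 (AOM/DSS in WT), -0.41 (AOM/DSS, labelled knockout), 0.56 (label, untreated) and 0.48 (label, AOM/DSS) without COX1, and -0.40, -0.33, 0.53 and 0.54 as a difference of medians. Without complex II it was -0.05, 0.47 and 0.77 in the last 3, beside -0.06, 0.46 and 0.76 as reported. Of the ratios of single genes and the medians of groups, 402 moved by more than counting error and 2145 did not. The main results were counts of members past the rule, genome ratios with their changes, and isoform shares. Of these, 31 moved by the limit set for their kind and 177 did not. Genes near 50 counts, such as Cox6b2, Cox4i2 and Cox7a1, are limited by depth.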
